A study of Mus musculus with 62 samples.

Results

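The clustered histone genes were taken as every gene row whose symbol begins with Hist1h, Hist2h, Hist3h or Hist4h. This rule found 57 of 19112 gene rows, of which 5 are named for the linker histone H1, 18 for H2A, 15 for H2B, 9 for H3 and 10 for H4. GENCODE vM21 gives a protein-coding transcript for 56 of them and lists Hist1h2al, an H2A name, as a processed pseudogene. By cluster, 46 belong to Hist1, 8 to Hist2, 2 to Hist3 and 1 to Hist4. The data are single-cell RNA-seq libraries of KPC1199-EGFP, an EGFP-expressing line of mouse pancreatic cancer whose strain background is C57BL/6. The cells were grown in DMEM with 10% fetal bovine serum, received no treatment, and were taken by trypsin from an adherent culture at passage 9. The labels name no second culture. All libraries share this line and its capture on the Fluidigm C1 system, a microfluidic device that isolates single cells and amplifies their cDNA, so they form 1 group and no comparison between groups was made. Values are therefore described over cells, with no p-value.

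Of 62 libraries, the 50 in which ERCC spike-ins, synthetic RNAs added to each reaction, took under 20% of all counts are described. In these 50 the spike-in share ran from 0.191% to 1.83%, the gene counts ran from 2154000 to 12870000 with a median of 7195000, and 6832 to 11068 genes had a value above 0. A single count was worth 0.464 CPM (counts scaled to the same library total) in the shallowest library and 0.0777 CPM in the deepest. The other 12 had spike-in shares of 22.3% to 97.2%. The epithelial keratins Krt8, Krt18 and Krt19 and the adhesion gene Cdh1 were found in all 50 libraries, whereas Epcam was found in 18. No immune marker was above 0 in 25 libraries or more, and the summed level of all 6 immune markers was at most 3.61 CPM. Of 6 fibroblast markers only Col1a1 was found that widely, in 41 libraries. Its level was low, with a median of 0.229 CPM and a highest value of 1.007 CPM. Col3a1, another fibroblast marker, was found in 1 library, at 67.99 CPM. The summed level of the 5 endothelial markers reached 215 CPM in the highest library and had a median of 0 CPM.

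Histones package DNA into nucleosomes, whose core holds H2A, H2B, H3 and H4, while H1 binds the linker DNA between them. Cells make the bulk of their core histones from the clustered genes in S phase, when new DNA must be packaged. The mRNAs of these genes typically lack introns and a poly(A) tail and end shortly after a conserved stem-loop, which is bound by the protein SLBP. Some clustered genes also yield polyadenylated transcripts, and histone variants encoded outside the clusters, such as H3.3 and H2A.Z, have ordinary poly(A) tails. A library primed on poly(A) tails records stem-loop mRNAs poorly. The labels do not name the primer, and its part in the levels given here was not tested.

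The stem-loop is shown first because it is the element that defines this mode of 3′ end formation. The motif was derived from the members' own GENCODE vM21 transcripts. It starts from the perfect inverted repeat (a 6-base stem around a 4-base loop) held by the most members, 23, and takes in like repeats of the members that differ from it at up to 4 bases, with N where they differ. The motif so obtained, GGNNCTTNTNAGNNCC, was searched on the sense strand only. It occurs in a transcript of 39 of the 57 clustered genes, which built it. Of all 58797 protein-coding transcripts 209 hold it (0.355%), those of the members included. Counted as genes, 136 coding genes hold it, and 97 of these are not members. Of the 97, 7 have other clustered histone names. The sites below belong to members that the results return to, with the motif in capitals and up to 5 flanking bases in lower case, written as DNA.
Hist1h2ao: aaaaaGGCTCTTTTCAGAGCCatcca
Hist1h2ae: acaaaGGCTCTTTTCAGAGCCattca
Hist1h2ab: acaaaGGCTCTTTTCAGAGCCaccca
Hist1h2bk: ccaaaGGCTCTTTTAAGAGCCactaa
Hist1h3g: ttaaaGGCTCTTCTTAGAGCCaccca
Hist1h1c: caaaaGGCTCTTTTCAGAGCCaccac
Hist1h4d: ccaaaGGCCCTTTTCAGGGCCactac
Hist1h4i: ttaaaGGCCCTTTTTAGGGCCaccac
Hist1h4b: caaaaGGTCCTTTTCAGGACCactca

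All 10 H4 members hold the motif. Their stems differ from those of the other classes. The form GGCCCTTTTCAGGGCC was found in 7 H4 members, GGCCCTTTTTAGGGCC in 2 and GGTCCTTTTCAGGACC in 1. The motif-bearing members of H1, H2A, H2B and H3 instead began GGCTC and ended with its reverse complement in every case, which were 3, 11, 8 and 7 members in that order. Hist1h3g, an H3 gene, was the only member in which the run of T after GGCTC was broken by a C. In 22 members the annotated transcript ends within 100 bases of the motif, from 3 to 74 bases past it. In 17 the longest one runs more than 100 bases past it. The 18 members without the motif include Hist1h2bc and Hist2h2be, which encode H2B and have long annotated transcripts, and Hist1h2bq, Hist1h2br, Hist1h2af and Hist1h2al. Absence of these letters from an annotated transcript says only that the annotated sequence does not hold them. GENCODE vM21 is on GRCm38, another build than the mm9 named in the submitters' processing notes, so no coordinates are given.

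Of the 57 members, 13 had a value above 0 in at least 25 of the 50 libraries, called the 25-library mark here, against 48.6% of all gene rows. These 13 were 7 H2A (with the pseudogene Hist1h2al), 4 H2B and 2 H4 members, and none was an H1 or H3 member. A further 27 members were found in 10 to 24 libraries and 17 in fewer than 10. No member was at 0 everywhere, and the rarest, the H3 gene Hist1h3b, was found in 2 libraries. Hist1h2bk, with 26 libraries, lay just inside the 25-library mark, and Hist2h2be, with 24, just outside. A cell held a median of 20.5 members, from 5 to 37. The members at this mark are counted here by the end of their annotated transcript. The 25-library mark was reached by 5 of the 22 members whose transcript ends within 100 bases of the stem-loop, 3 of the 17 that run farther, and 5 of the 18 with no motif. The last 5 were Hist1h2bc, Hist1h2af, the pseudogene Hist1h2al, and Hist1h2bq and Hist1h2br, whose values were identical. The Hist1h2af transcript of 399 bases has its last coding base at 395, so its annotation holds almost no 3′ end.

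**Figure D1:**
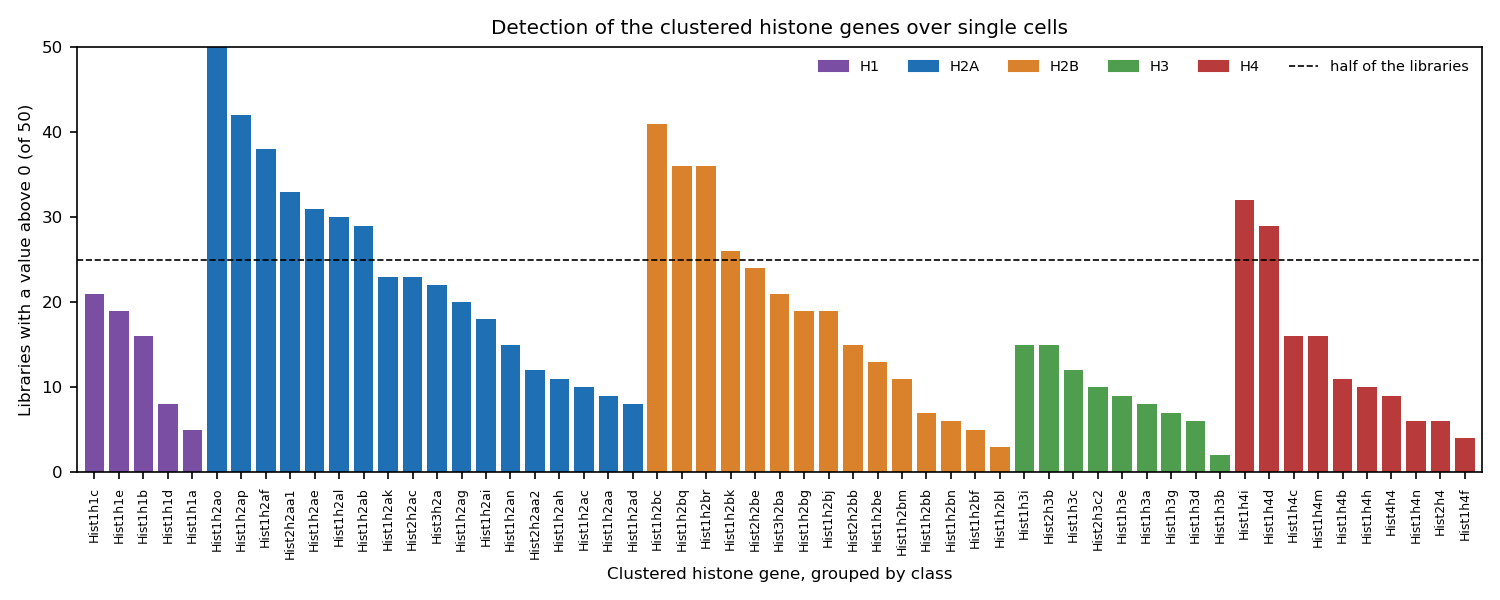
Number of the 50 libraries with a value above 0 (y axis) for each of the 57 clustered histone genes (x axis), coloured by class, with a dashed line at 25 libraries. Hist1h2ao reaches all 50, 13 genes reach the line, and no H1 or H3 gene does.

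The members together made up a small share of each cell's gene counts. The share was 0.00515% in the lowest library, 0.0322% in the median one and 0.233% in the highest. Summed over members, the level was 51.4 CPM in the lowest library (library 30), 322 CPM in the median one and 2325 CPM in the highest (library 37), a 45.2-fold range. On the log2(CPM + 1) scale the mean was 8.36 ± 1.42 (SD, n = 50 cells). This quantity is relative. A cell with less of all other RNA and a cell with more histone mRNA cannot be told apart on the CPM scale alone, and counts per 1000 spike-in counts, which scale to a fixed amount of added RNA, had a range of 4.997 to 261 with a median of 53.7.

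H2A dominated the total. Levels of different genes are compared per kilobase of annotated transcript, and on that scale H2A took 87.5% of the summed member level, H2B 8.20%, H4 2.46%, H1 0.922% and H3 0.910%. Without division by length, the shares of summed CPM were 77.8%, 15.5%, 3.52%, 2.16% and 1.02% in that order. Whether the annotated lengths are those of the mRNAs in these cells was not tested. Per library, the summed H2A level was 23.9 CPM per kb at the lowest, 293 at the median and 4385 at the highest. The summed H2B level was 0, 51.6 and 330 CPM per kb at the same points, and the summed H4 level was 0, 17.7 and 75.8. H1 had a median of 3.30 CPM per kb and H3 of 3.64, and both had libraries at 0. The nucleosome core holds its 4 histones in equal numbers, and the recorded levels of the 4 core classes were unequal.

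**Figure D2:**
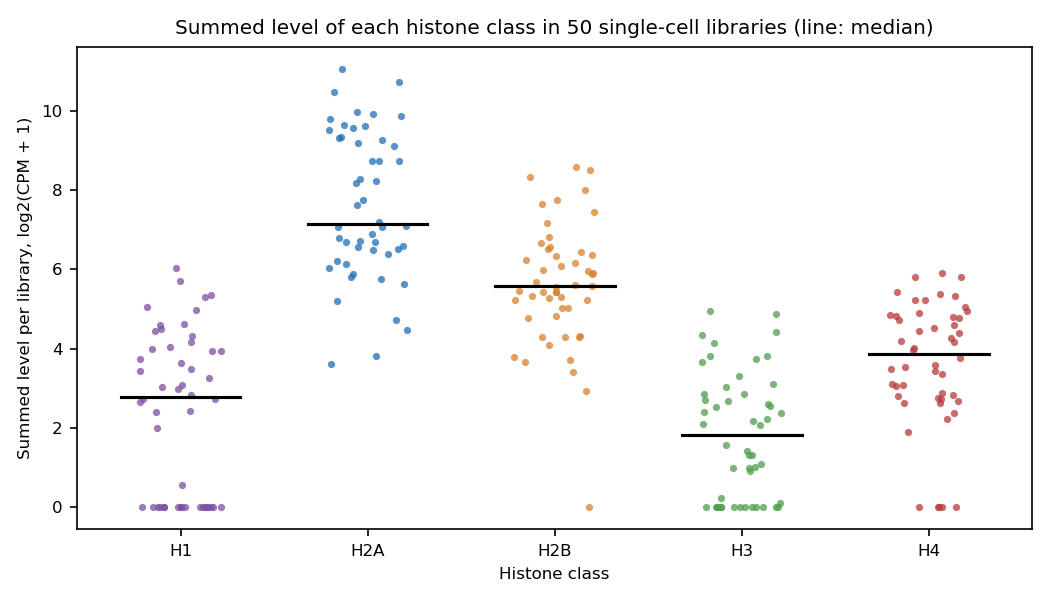
Summed level of each histone class, as log2(CPM + 1) on the y axis, in each of the 50 libraries (points), with the median as a line. Sums are not corrected for transcript length. H2A has no library at 0, whereas H1, H2B, H3 and H4 have 18, 1, 14 and 5 libraries at 0.

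A single H2A gene, Hist1h2ao, carried most of this. It encodes a canonical, replication-dependent H2A. Its level was 3.87 CPM in the lowest library, 130 CPM in the median one and 1771 CPM in the highest. It was the only member above 0 in all 50 libraries, had at least 100 CPM in 27 and at least 1000 CPM in 3, and was under 10 CPM in 2. Per kilobase it was the highest member in 43 libraries, Hist1h2bc was the highest in 6, and another member was in 1. Its mean of 722 CPM per kb was 77.4% of the summed member level on that scale. Its share of the member CPM within a library ranged from 5.36% to 87.9%, with a median of 65.5%.

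The deposited values cannot separate all of these genes. Of all 31-base words in the annotated transcripts of Hist1h2ao, 6.22% occur in no other gene's transcript, and 422 of its 450 words also occur in Hist1h2ap, an almost identical H2A gene. Such words matter because kallisto assigns reads by matching short words and divides reads that fit several transcripts. Over the members the median share of words found in no other gene was 37.02%, 36 members were under 50%, and only 5 were over 90%. Of the members' values above 0, 11.7% were whole numbers (within 1e-06), against 66.3% over all genes. Hist1h2bq and Hist1h2br, which share 98.3% of the words of the former, held identical values in every library. For this reason sums over classes, and over Hist1h2ao with Hist1h2ap, are given beside single genes. The level of Hist1h2ap was 0, 5.23 and 156 CPM at the lowest, median and highest library, and the sum of both was 3.87, 131 and 1927 CPM.

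The other H2A members at the 25-library mark were far lower. Hist1h2ae, found in 31 libraries, had a median of 3.85 CPM and a highest value of 55.4 CPM. Hist1h2ab, found in 29, had a median of 0.360 CPM and a highest value of 22.7 CPM. Hist2h2aa1, found in 33, reached 68.0 CPM with a median of 0.478 CPM. Library 37, the highest for Hist1h2ao, was also the highest library for all of Hist1h2ap, Hist1h2ae, Hist1h2ab and Hist2h2aa1. Hist1h2af, found in 38 libraries, and Hist1h2al, found in 30, reached 2.83 and 5.62 CPM. The H2A sum without Hist1h2ao and Hist1h2ap was 0, 21.9 and 205 CPM.

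Among H2B genes Hist1h2bc stood apart. Its level was 0 CPM in the lowest library, 20.1 CPM in the median one and 359 CPM in the highest, and it was found in 41. At 44.1 CPM per kb it had the second mean level per length of the 57 members, next to 41.1 for Hist1h2ap. Its 3 highest values lay in library 17 (359 CPM), library 14 (306 CPM) and library 32 (290 CPM), and Hist1h2ao was at 52.3, 276 and 19.8 CPM in these cells. In that order these libraries had 6935, 7612 and 6832 detected genes, toward the low end of the 50. Their spike-in shares of 1.60%, 1.83% and 1.64% lay toward the high end. Over the 50 cells Hist1h2bc had r = -0.02 with the number of detected genes, and the part of library quality was not tested. In library 37, where Hist1h2ao was highest, Hist1h2bc was at 0. Hist2h2be, which with 97.2% of its words found in no other gene is one of the best separated members, ran from 0 to 83.8 CPM with a median of 0. Hist1h2bk ran from 0 to 10.9 CPM with a median of 0.234 CPM. Hist1h2bq and Hist1h2br had a median of 0.375 CPM each and reached 19.7 CPM.

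In the H4 class 2 genes reached the 25-library mark. Hist1h4i was found in 32 libraries, with a median of 1.85 CPM and a highest value of 19.2 CPM. Hist1h4d was found in 29, with a median of 3.27 CPM and a highest value of 43.5 CPM. Hist1h4c and Hist1h4m followed with 16 libraries each and reached 14.7 and 23.2 CPM. Because all H4 genes encode the same protein, the class sum is the more direct measure of H4 mRNA. It was 0 CPM in the lowest library, 13.6 CPM in the median one and 58.8 CPM in the highest, and was above 0 in 45 libraries.

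H1 and H3 mRNAs were sparse. The H1 sum was above 0 in 32 libraries and had a median of 5.91 and a highest value of 64.8 CPM. Hist1h1c, Hist1h1e and Hist1h1b, which encode replication-dependent linker histones, were found in 21, 19 and 16 libraries and reached 40.3, 18.7 and 27.3 CPM. The H3 sum was above 0 in 36 libraries and had a median of 2.56 and a highest value of 29.9 CPM. Hist1h3i and Hist2h3b were found in 15 libraries each and Hist1h3c in 12, and the highest value among these 3 genes was 9.66 CPM, in Hist1h3c. The highest H1 and H3 sums were both in library 17, the library with the lowest S phase score (below). In that library the H3 sum came from Hist1h3a alone, at 29.9 CPM. Next in both sums was library 37, at 51.5 CPM for H1 and 28.5 CPM for H3, with an S phase score of 0.524.

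Cell cycle position was read from the mean z value of 39 S phase genes and of 51 G2 and M phase genes, none of which is a member. Among the S phase genes of highest level, Pcna, the sliding clamp of DNA polymerase, had a median of 780 CPM, and Rrm2, a subunit of ribonucleotide reductase, had 413 CPM. Among the G2 and M phase genes, Hmgb2, a chromatin protein, had a median of 1215 CPM and Ccnb1, cyclin B1, had 352 CPM. Both scores were lowest in libraries 17 and 19, which had 6935 and 7436 detected genes, toward the low end of the 50. The scores were correlated with each other over the 50 cells at Pearson r = 0.52 and Spearman rho = 0.12. The number of detected genes had r = 0.42 with the S phase score and r = 0.59 with the G2 and M phase score. Cells, depth and the CPM denominator are shared by every correlation given here, and each is a description over 50 cells of 1 culture.

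Hist1h2ao was correlated with the S phase score, with r = 0.51 and rho = 0.57. With the G2 and M phase score r was 0.29 and rho was 0.25. Its r with the S phase score was 0.52 within blocks of 12 consecutive label numbers, 0.53 with the number of detected genes taken out of both measures, and between 0.48 and 0.55 when each cell was left out in turn. The 3 cells with at least 1000 CPM of Hist1h2ao, libraries 21, 37 and 41, had S phase scores of 0.369, 0.524 and 0.542. The 2 cells under 10 CPM, libraries 2 and 3, had S phase scores of 0.167 and -0.0307 and G2 and M phase scores of 0.615 and 0.858. High S phase scores did not always come with a high level, since library 30 had a score of 0.497 and 35.6 CPM.

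**Figure D3:**
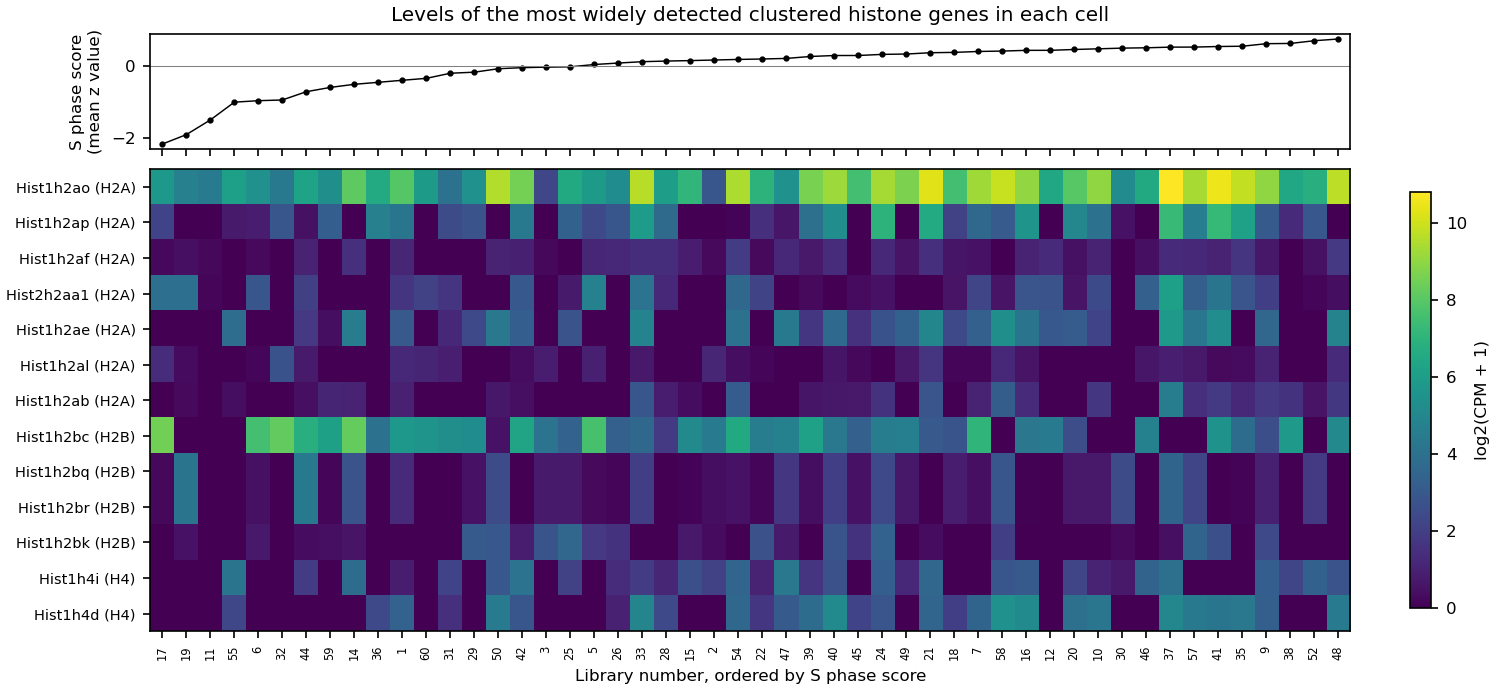
Upper panel, S phase score (mean z value) of the 50 libraries in ascending order. Lower panel, level of the 13 most widely detected members (rows, class in brackets) as log2(CPM + 1) by colour in the same order. Hist1h2ao is above 0 in every column and brightest in columns to the right, whereas Hist1h2bc is brightest in library 17 at the far left.

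By class, the r with the S phase score was 0.47 for H2A (rho 0.54) and 0.42 for H4 (rho 0.36). It was 0.29 for H1 (rho 0.39) and 0.23 for H3 (rho 0.31), and without libraries 17 and 19 these became 0.47 and 0.41. For H2B it was -0.25 (rho -0.27), and -0.16 without those 2 cells. It was -0.44 without library 55 alone and -0.14 without library 17 alone, and its sign turned over all 62 libraries (0.39) and with spike-in scaling (0.0649). Without libraries 17 and 19 it was 0.51 for H2A and 0.39 for H4. With the G2 and M phase score r was 0.29 for H2A, 0.37 for H4, 0.25 for H1, 0.24 for H3 and -0.19 for H2B, and without libraries 17 and 19 it was 0.27, 0.33, 0.37, 0.37 and -0.11 in that order. Leaving out library 17 alone took the H2B value to -0.0997. That value also turned sign over all 62 libraries (0.40) and with spike-in scaling (0.23). Within blocks of label numbers the r with the S phase score was 0.47 for H2A, 0.37 for H4 and -0.28 for H2B.

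As sums of CPM, both the H2A and the H2B values rested on 1 or 2 genes. Without Hist1h2ao and Hist1h2ap the r of H2A with the S phase score was 0.09, and 0.29 when libraries 17 and 19 were left out too. Without Hist1h2bc and Hist2h2be, the 2 H2B genes of highest summed CPM, that of H2B was 0.20 (rho 0.06). Hist1h2bc alone had r = -0.19 and rho = -0.32. The member total, which mixes both kinds, had r = 0.29 and rho = 0.37, and without Hist1h2ao and Hist1h2ap its r was -0.17, or -0.04 with libraries 17 and 19 left out too. Weighting the members at the 25-library mark equally, as a mean z value, gave r = 0.36 for H2A, -0.07 for H2B and 0.37 for all members. Hist1h2ao was kept in the first and last of these. Of the 13 members at the 25-library mark, 6 had r of at least 0.3 with the S phase score, against 16.7% of all 9282 genes at that mark. They were Hist1h2ao, Hist1h4d (r = 0.45), Hist1h2ab (0.36), Hist1h2ae (0.35), Hist1h2af (0.35) and Hist1h4i (0.30). With the G2 and M phase score 5 of the 13 had such an r, against 14.7%. The median r with the S phase score was 0.30 over the 13 members and 0.09 over all genes, and with the G2 and M phase score it was 0.24 and 0.10. The 13 include genes that share words with Hist1h2ao and the identical pair, so they are not 13 separate measurements.

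**Figure D4:**
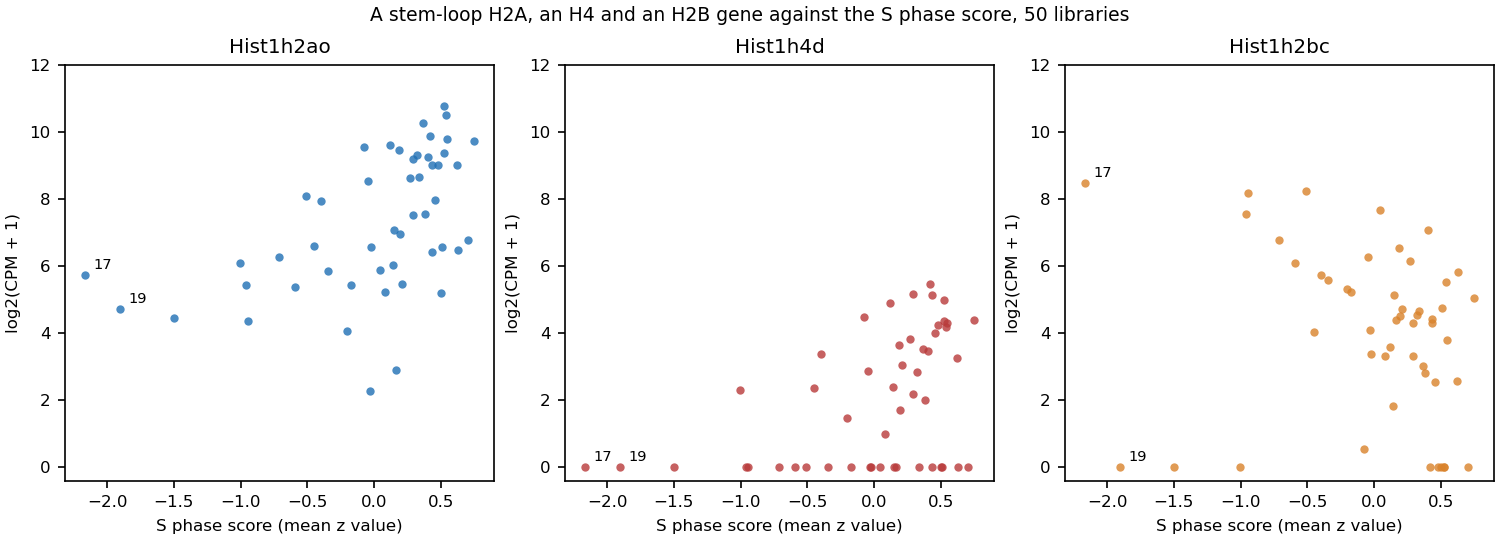
Level of Hist1h2ao (H2A), Hist1h4d (H4) and Hist1h2bc (H2B) as log2(CPM + 1) on the y axis against the S phase score (mean z value) on the x axis, 1 point per library (n = 50), with libraries 17 and 19 marked. The r values are 0.51, 0.45 and -0.19, and Hist1h2bc is highest in library 17, which has the lowest score. Library 17 has 6935 detected genes, toward the low end of the 50.

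Several members varied together across cells. Over the 66 pairs of 12 members at the 25-library mark, with the identical pair counted once, the median r was 0.18, against 0.03 over all pairs of genes at that mark. An r of at least 0.3 was found in 23 pairs (34.8%), against 4.40% of all gene pairs. The highest was between Hist1h2ao and Hist1h4d, at r = 0.79 and rho = 0.79. These 2 genes encode different histones and share none of their 31-base words in GENCODE vM21, which may differ from the index the authors used. Hist1h2ao had r = 0.74 with Hist1h2ae, with which it shares 54.4% of its words. It had r = 0.72 with Hist1h2ab, with which it shares 243 of its 450 words. The median r was 0.30 over the 25 pairs within a class and 0.11 over the 41 pairs between classes. Of the pairs within a class, 21 were H2A pairs, with a median r of 0.32. Several of these H2A genes share words, and the part of shared words in the within-class median was not tested. Among H2B genes, Hist1h2bk had r = 0.22 with Hist1h2bq and -0.12 with Hist1h2bc, and Hist1h2bc had -0.34 with Hist1h2bq. The H4 pair, Hist1h4d and Hist1h4i, had r = 0.33. Pairs with Hist1h2bc had a median r of -0.14, from -0.34 with Hist1h2bq to 0.25 with Hist1h2al.

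**Figure D5:**
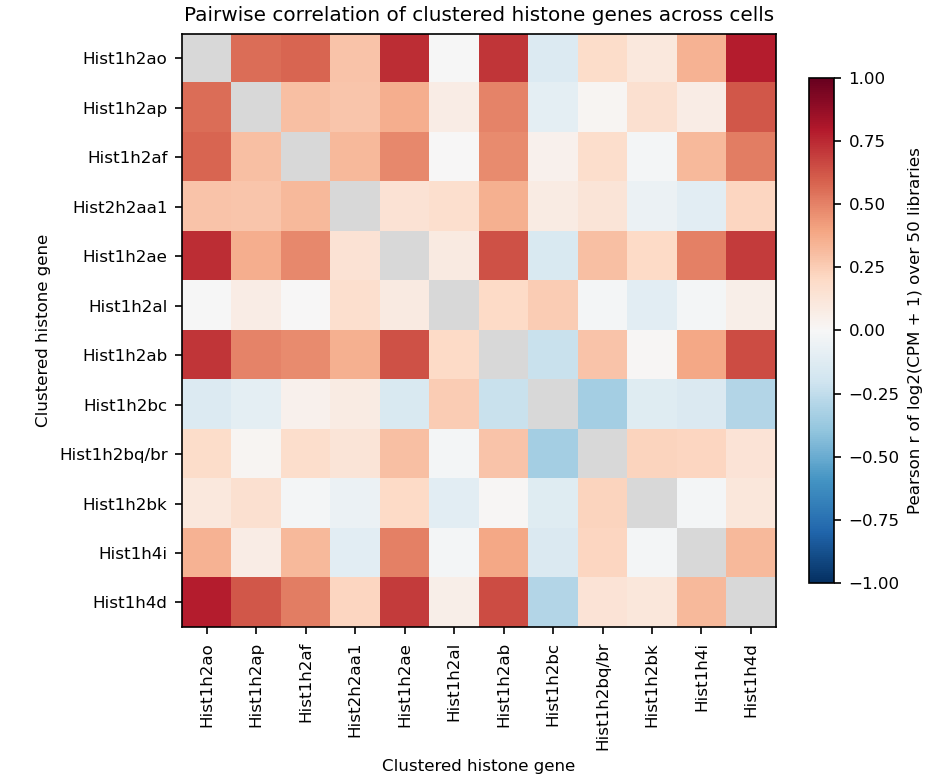
Pearson r of log2(CPM + 1) over 50 libraries for each pair of the 12 members at the 25-library mark (colour, from -1 to 1), with Hist1h2bq and Hist1h2br as 1 row and the diagonal in grey. The darkest red cells join Hist1h2ao, Hist1h2ae, Hist1h2ab and Hist1h4d, with r up to 0.79, and the Hist1h2bc row is mostly pale blue.

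Class sums varied together in some pairs. H2A had r = 0.68 with H4 (rho 0.74), 0.63 with H1 (rho 0.65) and 0.35 with H3 (rho 0.44). H1 had r = 0.51 with H3 and 0.40 with H4, and H3 had 0.12 with H4 (rho 0.19). H2B had r = 0.06 with H2A, 0.15 with H1, 0.15 with H3 and -0.15 with H4. Without Hist1h2bc and Hist2h2be, H2B had r = 0.37 with H2A, 0.34 with H4, 0.24 with H3 and 0.13 with H1. The sum of Hist1h2bc and Hist2h2be had r = -0.10 with the sum of Hist1h2ao and Hist1h2ap.

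Promoters are shown for Hist1h2ao and Hist1h4d, because these 2 members were the most alike across cells. Of the 57 members, 52 matched a gene in the RefSeq GRCm38.p6 promoter table, which holds 250 bases before and 50 after each start. On both strands CCAAT was searched, as were the TATA box motif TATAAA and the octamer bound by Oct-1, written ATTTGCAT. CCAAT was found in 86.5% of the 52 members and in 37.9% of all 27025 promoters. It was found in all 5 H1, 17 H2A, 13 H2B and 8 H3 members that matched, and in 2 of 9 H4 members. Hist1h2bc, Hist2h2be, Hist1h2al, Hist1h3a and Hist2h4 had no match and were not searched. TATAAA was found in 53.8% of the members and 14.2% of all promoters. ATTTGCAT was found in 23.1% of the members and 1.75% of all promoters, in 7 of 17 H2A and 5 of 13 H2B members and in no H1, H3 or H4 member that matched. In the 140-base stretches below, both on chromosome 13 and read on the + strand of that build, capitals mark CCAAT, or ATTGG where it lies on the other strand, and the TATA box motif.
Hist1h2ao: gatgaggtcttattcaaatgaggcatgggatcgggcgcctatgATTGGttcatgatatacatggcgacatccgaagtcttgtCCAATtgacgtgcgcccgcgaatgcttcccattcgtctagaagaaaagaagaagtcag
Hist1h4d: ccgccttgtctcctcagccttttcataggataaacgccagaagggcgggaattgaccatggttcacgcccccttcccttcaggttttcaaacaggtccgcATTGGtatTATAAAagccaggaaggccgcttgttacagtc
Hist1h2ao holds CCAAT on both strands and no TATAAA in these 140 bases. Hist1h4d holds ATTGG close to a TATAAA. A match is a description of the letters only.

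Genes of the histone pathway were then set beside the member total. Of all 9282 genes at the 25-library mark, 1.73% had r of at least 0.3 with the total and 2.31% had r of at most -0.3, and the median was -0.01. The transcription and 3′ end processing list had 15 of 16 genes at the 25-library mark and a median r of 0.06. Slbp, the stem-loop binding protein, was found in all 50 cells at 74.4, 374 and 850 CPM at the lowest, median and highest. It was the only gene of that list with r of at least 0.3 with the total (r = 0.33), and it had r = 0.50 with Hist1h2ao and 0.77 with the S phase score. Npat, the coactivator of histone gene transcription, had a median of 8.95 CPM and r = -0.22 with the total. Casp8ap2, a component of histone locus bodies, had r = 0.11. Lsm10 and Lsm11, proteins of the U7 particle that guides 3′ cleavage, had r = -0.06 and 0.17, and Cpsf3, the cleavage nuclease, had 0.26. Zfp473, found in 16 cells, was the gene of the list below the 25-library mark.

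Histone chaperones had 16 of 17 genes at the 25-library mark and a median r of 0.09 with the total. Only Chaf1a, the large subunit of the replication-coupled H3-H4 chaperone CAF-1, had r of at least 0.3 (r = 0.34). Asf1b, an H3-H4 chaperone of proliferating cells, had r = 0.22 with the total, 0.37 with Hist1h2ao and 0.80 with the S phase score. Hat1, the acetyltransferase of newly made H4, had r = 0.13, 0.34 and 0.70 in that order. Cyclin E and E2F genes had 6 of 7 at the 25-library mark and a median r of 0.02. Ccne1, cyclin E1, had r = 0.20 with the total and 0.40 with Hist1h2ao, and E2f3 had -0.36 with the total. The S phase list itself had a median r of 0.18 with the total, with 8 of 39 genes at 0.3 or more, and the G2 and M phase list had 0.15, with 5 of 51.

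Of 11 histone variant genes outside the clusters, 10 were at the 25-library mark, and their summed level was 6071 CPM at the lowest cell, 11000 at the median and 17890 at the highest. H2afz, which encodes H2A.Z, was at 1603, 4784 and 8300 CPM. H3f3b, which encodes H3.3, was at 1313, 2807 and 8009 CPM and had r = 0.42 with the member total but 0.18 with the S phase score. H1f0, the linker histone H1.0, had r = 0.31 with the total. Cenpa, the centromeric H3, had r = 0.82 with the G2 and M phase score and 0.04 with the member total. H2afx, whose transcript also holds the stem-loop motif, had r = 0.64 with the G2 and M phase score and 0.15 with the member total. H2afy2 was found in 5 cells.

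Members were left out of the ranking of genes by r with the member total. Among the other genes at the 25-library mark, the 10 with the highest r were led by Fbxo5, an inhibitor of the anaphase-promoting complex (r = 0.56, rho = 0.56). Its level was 0 CPM in the lowest cell, 38.8 CPM at the median and 240 CPM in the highest, and it was found in 34 cells. Blm, a DNA helicase and 1 of the S phase genes, followed with r = 0.53. Esco2, which acetylates cohesin in S phase, had 0.51, and Ncapd3, a condensin II subunit, had 0.48. Srd5a1, a steroid reductase, had 0.45. Incenp, of the chromosomal passenger complex, had 0.45, and Sgol1, which protects centromeric cohesin, had 0.43. Alkbh8, a tRNA methyltransferase, also had 0.43, and H3f3b and Ccdc130 each had 0.42. The 5 lowest were Arhgef1 (r = -0.61), Tbrg1 (-0.57), Bag3, a co-chaperone (-0.50), Hcfc2 (-0.49) and Clcn2, a chloride channel (-0.46). Such a ranking, over the 9282 genes at that mark less the members, takes the extremes of many values.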

How the data were processed

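The deposited values are estimated counts for each gene symbol. The submitters' processing notes name kallisto as the authors' tool and mm9 as the genome build. For kallisto's version, its annotation and the sum from transcripts to genes, the sources used here give nothing. Each of the 62 columns is 1 cell, cells came from 1 culture, and cells are not replicates, so no count model or test was run. From the estimated counts, CPM was computed over the 19112 gene rows, leaving out 65 spike-in rows, and log2(CPM + 1) was used for correlations. The main set is the 50 libraries in which spike-ins took less than 20% of counts. No doublet caller was run. CPM per kb used GENCODE vM21 transcript lengths. The 31-base words were counted in GENCODE vM21 transcripts, which may differ from the authors' index.

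The members and lists were chosen with earlier results of these data known. The genes named were the members at or around the mark of 25 of 50 libraries and the 3 most widely found per class. Outside the members, the 10 highest and 5 lowest by r with the member total were named. Also named were the leading S phase and G2 and M phase genes and genes of the histone-related lists. Symbol Supt16h was matched as Supt16. Alternatives were all 62 libraries, other pseudocounts, detection marks and scalings, left-out genes and cells, blocks of label numbers, and regressing out detected genes. The settings without Hist1h2ao and Hist1h2ap, without Hist1h2bc and Hist2h2be, and without the 2 cells farthest in score were chosen after seeing the data. Correlation code was tested on simulated data. Python 3.11.15, numpy 2.4.6 and pandas 2.3.3 were used.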

Additional observations from a re-analysis of the deposited data

Results flagged for a closer look

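The 12 libraries where spike-ins took at least 20% of counts lie outside the comparisons above, and 11 of them held at least 1 clustered histone gene above 0. Their member total was 0 CPM at the lowest, 26.6 CPM at the median and 505 CPM at the highest, and they held 0 to 11 members with a median of 2. Hist1h2ao, found in all 50 other libraries, was above 0 in 1 of these 12, library 43, at 264 CPM. That library also held the most members (11) and 9041 detected genes at 389190 gene counts.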

How the results depend on the processing

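Of 156 values under alternative settings, covering 23 results, 106 stayed in place, 40 moved and 10 changed sign. A correlation stayed in place when it shifted by no more than an approximate standard error. For mean log2 levels the limit was the SD over cells, so the total going from 8.36 to 6.97 without Hist1h2ao counted as in place. Leaving out Hist1h2ao or Hist1h2ap cannot change the sums of H1, H2B, H3 or H4, and these unchanged values are among the 106. The cause was not tested in any case except where the setting itself removes genes or libraries. The count of 13 members found in 50% of the libraries became 6 when detection meant 1 CPM, 8 after thinning to 2000000 counts and 32 at a mark of 25% of the libraries. Mean log2 levels fell without genes. H2A went from 7.62 to 4.88 without Hist1h2ao and to 4.35 without Hist1h2ap as well, and the total then went from 8.36 to 6.81. The SD of the log2 total was 2.18 over all 62 libraries. Levels per spike-in count are on another scale, so only that SD was compared there.

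Over all 62 libraries, correlations with the S phase score became 0.62 for the total, 0.68 for H2A, 0.393 for H2B, 0.73 for H4 and 0.83 for Hist1h2ao, and those with the G2 and M phase score 0.59, 0.60, 0.40, 0.70 and 0.74. With spike-in scaling the values in the same order were 0.56, 0.63, 0.0649, 0.57 and 0.64, and 0.52, 0.51, 0.23, 0.62 and 0.48. These 2 settings also moved the median r of all 9282 genes with the S phase score from 0.09 to 0.47 and 0.41, and with the G2 and M phase score from 0.10 to 0.46 and 0.46, against which these values are to be read. Without Hist1h2ao the total had r = -0.11 with the S phase score and 0.0186 with the G2 and M phase score, and without Hist1h2ap as well -0.17 and -0.0247. H2A with the S phase score fell to 0.20 and 0.0946 in these settings. H2B without Hist1h2bc and Hist2h2be had 0.20 and 0.21. As a mean z value H2B had -0.0708 and 0.0368, and H4 had 0.52 with the G2 and M phase score. Without the 2 cells of most extreme H2B level, r of H2B with the S phase score was -0.11. Leaving out each cell in turn gave it -0.44 (without library 55) to -0.14 (without library 17). Within blocks of label numbers, r with the G2 and M phase score was 0.44 for H2A and 0.44 for Hist1h2ao. The median r of the lists with the total, over 62 libraries and with spike-in scaling, was 0.39 and 0.29 for processing, 0.48 and 0.38 for chaperones, 0.30 and 0.21 for cyclin E and E2F, and 0.58 and 0.45 for variants, while the median of all genes was 0.32 and 0.23. No paired analysis was possible because all libraries are of 1 group.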

Other observations

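The 2 most abundant kinds of member were alike to different genes, chosen here after their values were seen and given as descriptions over 50 cells. Clustered histone genes were left out of these rankings, and Hist1h2ao had higher r with some of them, up to 0.79 with Hist1h4d. Outside the members, nearest to Hist1h2ao were Fbxo5 (r = 0.66), Blm (0.61), Esco2 (0.59), Pcna (0.58), the chromatin ATPase Atad2 (0.57) and the exonuclease Exo1 (0.57). Blm, Pcna, Atad2 and Exo1 belong to the S phase list. Nearest to Hist1h2bc were Gtf2a1, a subunit of the general transcription factor TFIIA (r = 0.53), Ndufb10, a subunit of mitochondrial complex I (0.50), Mthfs, a folate enzyme (0.50), AI837181 (0.48), Emd, which encodes emerin (0.48), and Ick, a kinase (0.47). None of these 6 is in the S phase list or the G2 and M phase list. The 2 lists hold only 39 and 51 of the 9282 genes, so most sets of 6 genes would hold none of theirs.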
